A study of Homo sapiens with 12 samples.

Results

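The transcriptome described here is that of unstimulated control cells of MDA-231-LM2 (LM2), which was selected from MDA-MB-231, a widely used line of human breast cancer, for its capacity to colonise the lung. It was taken from the 3 libraries labelled Ctrl without IGF1, out of 12 libraries in a series of 4 groups with 3 libraries each. The remaining groups carry the labels TMEM216, IGF1 or both, and none of their values were used. The labels give no genotype, vector or clone for the Ctrl cells, no culture conditions, and no statement that the 3 replicates were separate cultures, so the spread between libraries may be technical. The RNA was total RNA from cells whose label is human breast cancer, and the library kit was Illumina's TruSeq RNA kit.

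MDA-MB-231 is a standard model of triple-negative breast cancer, a class defined by the absence of the estrogen receptor, the progesterone receptor and amplified ERBB2. Within that class it is usually placed among mesenchymal or claudin-low lines, which have lost epithelial junction proteins and carry intermediate filaments and surface proteins of mesenchymal cells. Growth and spread of such cells are tied in the literature to growth factor receptors of the EGF, MET and AXL type, to the proteases that open the matrix, and to cytokines that the tumour cell itself secretes.

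Levels are given as TPM (transcripts per 1000000), an abundance that is divided by transcript length and scaled so that each library sums to 1000000. Genes can therefore be compared with each other within a library, but a library's read depth cannot be read from the values. Each value is the mean ± SD over the 3 control libraries (n = 3), or the 3 library values in the order of replicates 1, 2 and 3. No test was run, since a single group was described. A gene is called detected here at a mean of 1 TPM or more, and a gene at exactly 0 is described as listed at 0, because an exact 0 in a table of estimates can be a failed estimate.

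The table held 21574 features, of which 20443 had Ensembl identifiers and 1131 were assembled transcripts with MSTRG names. Of all features, 12782 (59.2%) were detected, and that share is the background for every count below. The median over all features was 4.29 TPM. Another 4797 features (22.2%) were listed at 0 in all 3 libraries. Genes encoded in mitochondrial DNA were not in the table, so every TPM is relative to nuclear transcripts. Pairwise Pearson correlations of log2(TPM + 1) over the 21574 features were 0.9945 to 0.9951. They describe the libraries, since features are not independent replicates. The coefficient of variation (CV, the SD divided by the mean) had a median of 4.74% among the 9093 features at 10 TPM or more. Replicate 3 held the highest value for 39.9% of those features and replicate 1 the lowest for 41.3%.

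Protein synthesis, glycolysis and the cytoskeleton led the transcriptome. The most abundant transcript was EEF1A1, the elongation factor that brings aminoacyl-tRNA to the ribosome, at 10471, 10772 and 11039 TPM. GAPDH, the glycolytic dehydrogenase, followed at 9189, 9161 and 8881 TPM, and the cytoskeletal actin ACTB at 6349, 6407 and 7131 TPM. The fourth transcript of the cell was VIM, the mesenchymal intermediate filament protein vimentin, at 6345, 6221 and 6399 TPM. EEF1A1 lay above GAPDH and ACTB above VIM in every library, although the ranges of ACTB and VIM overlapped. Behind them came the tubulins TUBA1B (4524 ± 62.3 TPM) and TUBB (3558 ± 86.8 TPM), the ferritin light chain FTL (4207 ± 355 TPM), the calcium-binding protein S100A6 (4028 ± 205 TPM), the metal-binding protein MT2A (3311 ± 178 TPM), the actin-binding protein PFN1 (3285 ± 65.03 TPM) and the pyruvate kinase PKM (3169.9 ± 43.9 TPM).

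The 10 most abundant features held 5.76 ± 0.00716% of all TPM, the top 100 held 24.1 ± 0.236%, and 657 features made up 50% of the total. Of the top 100, 48 were cytoplasmic ribosomal proteins, 11 were cytoskeletal genes, 6 were glycolytic enzymes and 5 were translation factors. Ribosomal proteins of the cytoplasm together took 12.6 ± 0.324% of all TPM, and 78 of their 80 measured members were detected. The exceptions were RPL3L and RPL10L, copies otherwise known from muscle and testis. Nuclear genes of oxidative phosphorylation took 1.69 ± 0.036%, translation factors 3.12 ± 0.0317% and proteasome subunits 1.2 ± 0.0147%. A pair of secreted cytokines also stood among the top 100, CSF3 and IL1B, described with the other secreted factors. HMGA1, a chromatin architectural protein of embryonic and tumour cells, reached 2103 ± 65.6 TPM, and G0S2, an inhibitor of lipolysis, 1381 ± 30.5 TPM.

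**Figure D1:**
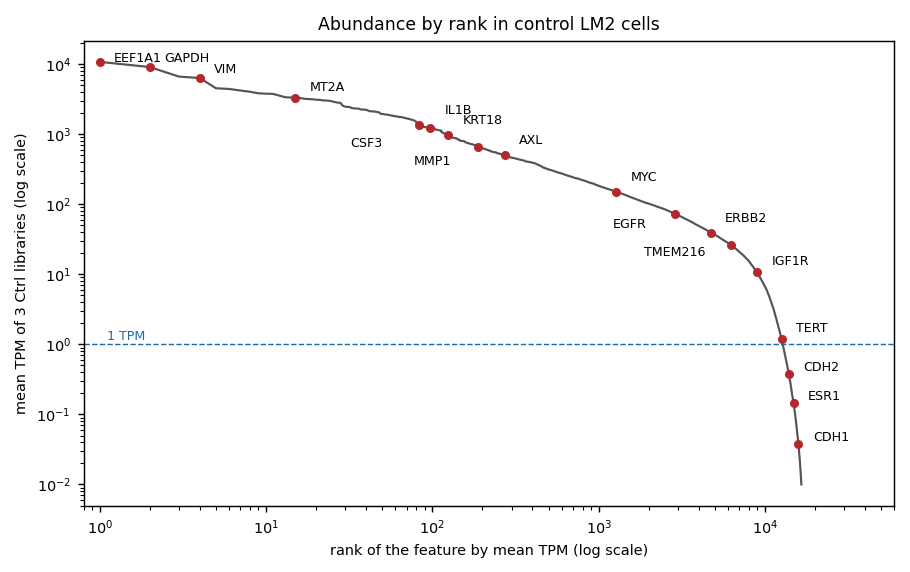
Mean TPM over 3 control libraries (vertical axis, log scale) against the rank of each feature (horizontal axis, log scale); the red points are named genes and the dashed line marks 1 TPM. VIM ranks 4, CSF3 and IL1B lie near rank 100, and ESR1 and CDH1 lie below the line.

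The promoters of 5 genes are shown because these genes mark the ends of the distribution and the secreted factors: MT2A at rank 15, the cytokines CXCL8 and IL11, and HOXA9 and MTAP, which were listed at 0. They were chosen after their values were seen. Each run is the 250 bases before the RefSeq transcription start (GRCh38.p14), 5′ to 3′ in lower case. Capitals mark TATAAA lying within the window from 40 to 19 bases before the start on the coding strand, and the AP-1 sequence TGACTCA on either strand (TGAGTCA when read from the opposite strand).
MT2A (chr16:56608334-56608583, plus strand): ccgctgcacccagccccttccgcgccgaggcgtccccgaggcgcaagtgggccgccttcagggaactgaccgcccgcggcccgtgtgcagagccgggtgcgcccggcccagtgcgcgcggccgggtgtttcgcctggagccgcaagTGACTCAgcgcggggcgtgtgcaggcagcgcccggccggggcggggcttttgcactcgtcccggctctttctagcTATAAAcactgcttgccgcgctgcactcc
CXCL8 (chr4:73740319-73740568, plus strand): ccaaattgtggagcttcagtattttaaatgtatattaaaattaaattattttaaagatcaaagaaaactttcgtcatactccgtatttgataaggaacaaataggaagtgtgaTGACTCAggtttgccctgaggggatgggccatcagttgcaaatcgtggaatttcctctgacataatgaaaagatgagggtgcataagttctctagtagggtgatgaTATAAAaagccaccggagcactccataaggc
IL11 (chr19:55370464-55370713, minus strand): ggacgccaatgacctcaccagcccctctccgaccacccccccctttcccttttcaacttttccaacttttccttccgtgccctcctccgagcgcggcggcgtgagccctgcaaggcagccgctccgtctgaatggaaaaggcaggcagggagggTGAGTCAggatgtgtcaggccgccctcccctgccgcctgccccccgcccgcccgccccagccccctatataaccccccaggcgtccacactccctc
HOXA9 (chr7:27165538-27165787, minus strand): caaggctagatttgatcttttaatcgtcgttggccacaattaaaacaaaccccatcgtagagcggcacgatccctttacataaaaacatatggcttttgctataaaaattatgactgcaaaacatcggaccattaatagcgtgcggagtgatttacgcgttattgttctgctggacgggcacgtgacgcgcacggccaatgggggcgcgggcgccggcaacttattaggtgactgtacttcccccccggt
MTAP (chr9:21802386-21802635, plus strand): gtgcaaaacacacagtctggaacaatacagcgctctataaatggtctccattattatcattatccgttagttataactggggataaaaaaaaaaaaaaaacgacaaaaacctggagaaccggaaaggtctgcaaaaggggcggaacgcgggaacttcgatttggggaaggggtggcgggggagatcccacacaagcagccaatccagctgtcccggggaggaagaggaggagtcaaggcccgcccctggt
In MT2A and CXCL8 both sequences occurred, in IL11 the AP-1 sequence occurred, and in HOXA9 and MTAP neither did within those limits. A TATAAA elsewhere in a window is left in lower case. The MT2A window held 32 CpG dinucleotides, that of IL11 16, that of CXCL8 4, that of HOXA9 20 and that of MTAP 11. These 5 windows do not stand for their level classes. Matched windows of genes listed at 0 had a median of 4 CpG. The medians were 21 at 10 to under 100 TPM, 21 at 100 to under 1000 TPM and 20 at 1000 TPM or more. Since 73.4% of genes listed at 0 had a window, CpG is not compared by level.

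RefSeq windows were matched by symbol for 15315 of 19432 named genes (78.8%), through 21548 windows. Windows on chromosomes 8 and Y were left out before matching, so some of the genes without a window lack it for that reason. TATAAA lay in its window in 3.05% of all those windows, and TGACTCA in 3.46%. Among genes of 10 to under 100 TPM, 1.13% of windows held TATAAA, among genes of 100 to under 1000 TPM 2.06%, and among genes of 1000 TPM or more 6.72% (9 of 134 windows). Those 9 belonged to RPLP0, MT2A, ANXA2, H2AZ1, PPIA, ANXA1, EEF2, SLC25A5 and TXN. In these 3 classes 80% to 84.2% of genes had a window. Below 10 TPM 73.4% to 78.0% of genes had one, under the 80% required, so the check by level is void there. The windows that were matched held TATAAA in 2.14% of cases at 1 to under 10 TPM, in 4.73% above 0 and below 1 TPM, and in 7.53% for genes listed at 0. The share of the highest class is thus not above that of the matched genes listed at 0, and no rise with level is read from these values. TGACTCA lay in 2.55% of windows at 10 to under 100 TPM, 3.38% at 100 to under 1000 TPM and 3.73% at 1000 TPM or more. Matched windows of genes listed at 0 held it in 4.39% of cases. No link of either sequence with level is therefore read from the 5 printed promoters. A match describes letters and not a bound site.

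Of the 3 subtype receptors ERBB2 alone was above the detection line. ESR1, the estrogen receptor, was below detection at 0.136, 0.091 and 0.204 TPM, and PGR, the progesterone receptor, was listed at 0 in all 3 libraries. ERBB2 was detected at 38.1, 38.7 and 41.2 TPM, a middle level that ranked below EGFR (71.2, 73.6 and 76.1 TPM) in every library. Of the list of 18 luminal factors, 6 were detected, against 59.2% of all features. XBP1, a factor of the secretory pathway, and MLPH, a melanosome transport protein used as a luminal marker, were high at 131 ± 3.52 TPM and 122 ± 6.24 TPM. GATA3 was at 8.21 ± 0.489 TPM and FOXA1, the pioneer factor of the estrogen receptor, at 0.297, 0.21 and 0.314 TPM. Secretory products of luminal cells such as TFF1, TFF3, SCGB2A2 and PIP were listed at 0.

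Keratins were split by type. The simple-epithelial keratins were abundant: KRT18 was at 996, 969 and 922 TPM, KRT8 at 634, 612 and 621 TPM and KRT7 at 394, 412 and 395 TPM, with KRT19 lower at 92.5 ± 2.25 TPM. KRT18 exceeded KRT8 in every library, although the proteins pair in one filament. The basal keratins KRT5, KRT14, KRT6A and KRT6B were listed at 0, KRT17 stood at 1.71, 1.51 and 2.04 TPM, and the basal regulator TP63 at 0.381, 0.301 and 0.363 TPM. Other basal genes were present, among them the laminin chain LAMB3 (367 ± 21.5 TPM), the integrin ITGA6 (143 ± 8.04 TPM) and the checkpoint protein SFN (123 ± 2.09 TPM). KRT81, a hair keratin, was higher than KRT7 in every library, at 465, 479 and 471 TPM, and KRT80 was at 90.5 ± 3.14 TPM. Of 55 keratins of both types, 13 were detected and 32 were listed at 0. In the GENCODE 29 annotation KRT86 overlaps KRT7 on the same strand and KRT81 on the opposite one. KRT8 and KRT18 overlap each other on opposite strands. Reads could have been shared within each of these overlaps.

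Junction genes ranged from listed at 0 to middle levels, and none of 26 reached 100 TPM. CDH1, the epithelial cadherin, was at 0.0307, 0.081 and 0 TPM, while CDH2, the neural cadherin that replaces it in many mesenchymal cells, was also low at 0.517, 0.208 and 0.389 TPM. The cadherins that were detected were CDH24 (36.7 ± 1.08 TPM), CDH4 (30.1 ± 0.7 TPM) and CDH18 (2.87 ± 0.436 TPM), 3 of 23 family members. Of the tight junction strands named in the claudin-low definition, CLDN3 was at 1.07, 1.17 and 1.22 TPM and CLDN4 at 1.45, 1.01 and 2.38 TPM, near the detection line, but CLDN7 was at 21.3, 20.1 and 21.9 TPM. CLDN7 overlaps ELP5 on the opposite strand in the annotation, so reads could have been shared there. The adhesion protein EPCAM was at 13.9 ± 0.055 TPM. Scaffold genes were higher, with TJP1 at 28.4 ± 0.927 TPM and the desmosomal protein DSP at 22.6 ± 0.882 TPM. GRHL2 and RAB25, a transcription factor and a small GTPase of epithelium, were listed at 0. In all, 15 of 26 junction genes (57.7%) were detected, close to the 59.2% of all features, with a list median of 1.52 TPM against 4.29 TPM, and 3 were listed at 0.

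Of 22 mesenchymal genes 16 (72.7%) were detected, against 59.2% of all features, with a median of 38.2 TPM against 4.29 TPM. Beside VIM stood the receptor AXL (492, 487 and 517 TPM), the hyaluronan receptor CD44 (490.5, 425 and 483 TPM), the lysyl oxidase LOXL2 (224 ± 8.45 TPM) and SPARC (223 ± 2.14 TPM), a matricellular protein. Transcription factors of the epithelial-mesenchymal transition were selective. SNAI2 was at 39.9, 39.03 and 35.4 TPM and ZEB1 at 37.5, 31.5 and 30.9 TPM, with overlapping ranges, ZEB2 was lower at 8.43 ± 0.244 TPM and SNAI1 at 1.35 ± 0.465 TPM, and TWIST1 and TWIST2 were listed at 0. CD44 was above CD24, whose low level with high CD44 is used to mark stem-like breast cancer cells, in every library, since CD24 stood at 16.02, 18.05 and 18.6 TPM. The ecto-enzyme NT5E (CD73) was at 517, 539 and 545 TPM and the aldehyde dehydrogenase ALDH1A3 at 45.5 ± 2.70 TPM, whereas ALDH1A1 was listed at 0.

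**Figure D2:**
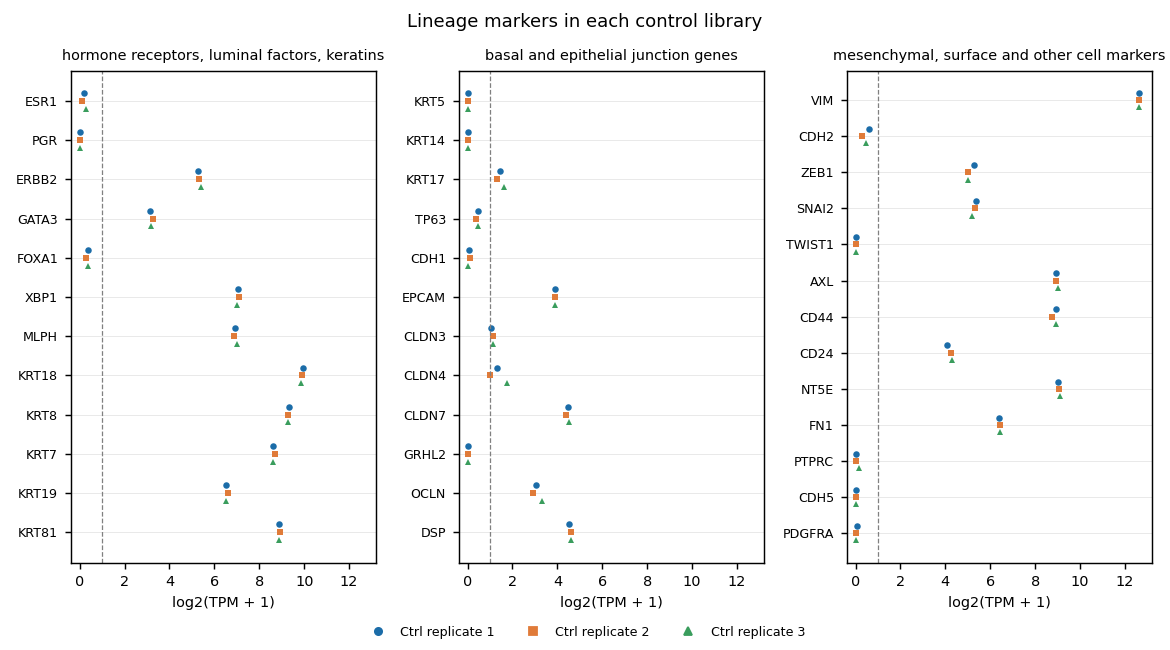
Each point is 1 control library, on a log2(TPM + 1) axis, for hormone receptors, luminal factors and keratins (left), basal and junction genes (middle) and mesenchymal, surface and other-cell genes (right); the dashed line marks 1 TPM. Points of 1 gene lie close together, with VIM at the far right and ESR1, PGR, KRT5, KRT14, GRHL2 and TWIST1 at or near 0.

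Markers of other cell types were mostly at or near 0. Detected shares were 23.5% (immune), 22.2% (endothelial), 7.69% (stromal) and 21.4% (neural, liver and muscle), against 59.2% of all features. Of 17 immune markers 4 were detected: CD68, a lysosomal protein of macrophages, at 207 ± 4.31 TPM, LCP1, an actin bundler of blood cells, at 41.3 ± 1.41 TPM, CD8A at 7.01, 5.41 and 7.92 TPM and CD14 at 2.15, 1.66 and 2.11 TPM. The pan-leukocyte marker PTPRC was at 0, 0.0266 and 0.101 TPM, and CD3E and ITGAM were listed at 0. The summed level of the 17 immune genes was 252.4, 259.2 and 260.4 TPM in the 3 libraries. The endothelial markers VWF and CDH5 were at 0.107, 0.0475 and 0.0616 TPM and at 0, and the detected members of that list were KDR (2.39 ± 0.194 TPM) and PECAM1 (1.07, 1.00 and 1.05 TPM), 2 of 9. Of 13 stromal markers COL1A1 was detected at 58.6 ± 1.26 TPM while PDGFRA was at 0.041, 0 and 0 TPM, DCN at 0.0355, 0 and 0 TPM and LUM was listed at 0. Of 14 neural, liver and muscle markers the detected ones were MBP (24.4 ± 2.19 TPM), SNAP25 (10.3 ± 0.389 TPM) and GFAP (6.14 ± 2.13 TPM), with CHGA, MYOD1 and TTR listed at 0. Whether any of these transcripts came from other cells was not tested, and in bulk RNA fewer cells of a type cannot be told apart from less RNA per cell.

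HOX genes, which set position along the body axis, differed by cluster. Of 11 measured HOXA genes none were detected and 9 were listed at 0, the exceptions being HOXA3 and HOXA13 at 0.14, 0 and 0 TPM and 0.306, 0.517 and 0.575 TPM. Of 10 HOXB genes 7 were detected, led by HOXB9 (18.7, 20.03 and 21.8 TPM) and HOXB3 (20.5, 19.6 and 16.9 TPM), of 9 HOXC genes 2 and of 9 HOXD genes 3. Many HOXB and HOXC genes, and HOXD3 and HOXD4, overlap a neighbour in the annotation, so single levels within a cluster are uncertain. SOX9, a progenitor factor, was at 59.9 ± 3.04 TPM and the orphan receptor NR2F2 at 181 ± 3.41 TPM. Pluripotency factors NANOG and LIN28B were listed at 0, with SOX2 at the detection line (0.863, 0.996 and 1.21 TPM), below 1 TPM in 2 of 3 libraries.

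The AP-1 family, the dimeric factors that bind the TGACTCA sequence, was led by FOSL1 at 826, 792 and 792 TPM. JUN was at 145, 153 and 152 TPM and FOS at 108, 101 and 99.7 TPM, with FOSL2 (73.5 ± 1.05 TPM), JUND (51.3 ± 5.44 TPM) and JUNB (31.4 ± 2.56 TPM) lower, so FOSL1 exceeded every other FOS and JUN gene in each library. ATF4, the factor of the amino acid response, was at 742 ± 3.94 TPM, and MYC at 151 ± 1.48 TPM. Of the 20 genes in this list 17 (85%, against 59.2% of all features) were detected, the exceptions being BATF, EGR2 and EGR3.

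Secreted cytokines included some of the most abundant messages of the cell. CSF3, the growth factor of neutrophils, was at 1352, 1329 and 1311 TPM and IL1B, a central inflammatory cytokine, at 1181, 1246 and 1219 TPM. CSF3 exceeded IL1B in every library. IL11, a cytokine of the gp130 family, was at 385, 365 and 356 TPM, the neutrophil chemokine CXCL8 at 330.1, 319 and 335 TPM, IL6 at 193, 200.1 and 192 TPM and IL18 at 129.8, 118 and 139.9 TPM. LIF, another gp130 ligand, was at 79.1 ± 0.979 TPM. Of the 32 cytokines and interleukins 17 (53.1%) were detected and 9 (28.1%) were listed at 0. These shares were near the 59.2% and 22.2% of all features. Those listed at 0 included IL10, IL33, OSM, IFNB1 and IFNG. TNF was at 0.0686, 0.306 and 0.248 TPM and IL1A at 20.1 ± 0.768 TPM, far below IL1B. IL6 and CLCF1 overlap another detected gene in the annotation, on the opposite and on the same strand respectively.

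Chemokines were led by CXC genes. CXCL1 was at 245, 232 and 255 TPM, CXCL2 at 55.6 ± 1.16 TPM and CXCL3 at 44.3 ± 2.19 TPM, all ligands of the neutrophil receptor CXCR2. Of 28 chemokines 8 (28.6%) were detected and 14 (50%) were listed at 0, against 59.2% and 22.2% of all features. CCL2, the monocyte attractant, CXCL12 and CXCL9 were among those listed at 0. The windows of the 8 detected chemokines were all in RefSeq. The AP-1 sequence lay in the windows of CXCL8 and CXCL11, and TATAAA in those of CXCL8 and CCL20. Of the 20 chemokines below 1 TPM 12 (60%) had a window, less than the share required above for the check by level. The AP-1 sequence lay in that of CXCL14 and TATAAA in those of CCL3, CCL7, CCL8 and CXCL13. Detected and undetected chemokines are therefore not compared, and nothing on level is read from these counts.

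Growth factors made up the next group of ligands. VEGFA, the angiogenic factor, was at 305, 313 and 337 TPM, and HBEGF, an EGF receptor ligand, at 186, 193 and 191 TPM. EREG was at 50.1 ± 4.06 TPM, TGFA at 30.5 ± 0.795 TPM and AREG at 13.4 ± 0.979 TPM, all ligands of the EGF receptor and all below HBEGF in each library. GAS6, the ligand of AXL, was at 89.9 ± 4.38 TPM, PDGFC at 82.03 ± 1.87 TPM, PGF at 79.1 ± 5.72 TPM and VEGFC at 72.7 ± 1.74 TPM. HGF, the MET ligand, was listed at 0. Of 35 ligands of these families 25 (71.4%) were detected, against 59.2% of all features. Among 37 ligands and antagonists of the TGF-beta, BMP and WNT systems 22 (59.5%) were detected, close to that share. The most abundant of the 37 was DKK1, a WNT inhibitor, at 224, 201 and 214 TPM. FSTL1 was at 144 ± 6.89 TPM, FST, an activin trap, at 93.8 ± 2.72 TPM, BMP4 at 54.4 ± 3.70 TPM and its antagonist NOG at 53.4 ± 0.739 TPM, so BMP4 and NOG stood side by side.

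Of 36 proteases 22 were detected (61.1%, close to the 59.2% of all features), 9 of them at 100 TPM or more (25%, against 9.46% of all features). MMP1, the interstitial collagenase, was at 643, 651 and 676 TPM, the urokinase PLAU at 533, 535 and 536 TPM and the membrane-bound MMP14 at 305, 315 and 305 TPM. The lysosomal proteases CTSD, CTSB and CTSL were at 466 ± 16.3 TPM, 212 ± 7.91 TPM and 103 ± 4.16 TPM, the sheddases ADAM15 and ADAM9 at 136 ± 3.50 TPM and 130.2 ± 5.24 TPM, and the tissue plasminogen activator PLAT at 113 ± 1.13 TPM. MMP3 was at 20.9 ± 0.954 TPM, MMP2 at 2.31 ± 0.197 TPM and MMP9, a gelatinase, at 0.19, 0.41 and 0.412 TPM, while MMP7 and MMP12 were listed at 0. Inhibitors were expressed beside them, TIMP1 at 296 ± 11.7 TPM, TIMP2 at 222 ± 9.00 TPM and TIMP3 at 95.4 ± 5.44 TPM, and 19 of 24 inhibitors were detected.

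Matrix genes were led by CCN1, a secreted integrin ligand, at 1146, 1101 and 1135 TPM, the transmembrane collagen COL13A1 (520.1 ± 31.3 TPM) and the laminin chain LAMB3. Fibrillar collagen was low by comparison, with COL1A1 at 58.6 ± 1.26 TPM, COL1A2 at 0.223, 0.149 and 0.261 TPM and COL3A1 at 0.208, 0 and 0.143 TPM. A pair of chains normally assembled together, COL1A1 and COL1A2, thus differed widely in TPM in every library. COL6A1 (166 ± 6.04 TPM) and FN1 (84.7 ± 2.46 TPM) were among the other detected members. In all, 40 of 55 (72.7%) were detected, against 59.2% of all features. SPP1, osteopontin, was at 0.369, 0.193 and 0.238 TPM.

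Of the 24 matched lung metastasis genes reported for this line 22 (91.7%) were detected, against 59.2% of all features. These genes were chosen in the literature on the parental and selected lines. MMP1, KRT81, ID1 (321 ± 6.00 TPM), IL13RA2 (269.8 ± 2.06 TPM), a decoy receptor of interleukin 13, CXCL1, LAPTM5 (227 ± 5.44 TPM), SPARC and FSCN1 (108 ± 1.29 TPM), an actin bundler, were the highest. CXCR4 (0, 0.205 and 0 TPM) and NEDD9 (0.363, 0.419 and 0.372 TPM) were not detected, and VCAM1 was at 2.88 ± 0.655 TPM. C10orf116, an older symbol of ADIRF, and RARRES3, now PLAAT4, were the unmatched entries, PLAAT4 being at 12.5 ± 1.68 TPM. The series holds no parental MDA-MB-231 library, so nothing is said of what the selection changed.

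Cells that secrete a ligand need not carry its receptor. Of 38 ligands paired with chosen receptor chains, 17 were detected with every chain entered also detected, and 5 were themselves below 1 TPM. Another 16 were detected with at least 1 entered chain below 1 TPM, 10 of these 16 with every entered chain below 1 TPM. These counts depend on the chains entered, since alternative receptors counted as chains and some receptors were left out. VEGFA is among the 16 through FLT1 (0.0129 TPM), although KDR (2.39 TPM) and NRP1 (96.7 TPM) were detected. EDN1 is among them through EDNRA (0.858 TPM), with EDNRB at 3.10 TPM. Among the 10, VEGFC was paired with FLT4 alone, and CSF1R was near the line at 0.810 TPM. CSF3 was high while CSF3R was listed at 0. CXCL8 and CXCL1 were high while CXCR1 and CXCR2 were listed at 0. ADM, the vasodilator peptide adrenomedullin, was at 197 ± 4.77 TPM with its receptor CALCRL at 0.129, 0.102 and 0.0869 TPM and its partner RAMP2 at 0.142, 0.897 and 0 TPM. IL18 lay with its binding chain IL18R1 at 0.0356, 0.276 and 0.353 TPM, KISS1 (45.8 ± 1.90 TPM) with KISS1R at 0, 0 and 0.0767 TPM, and PDGFA and PDGFC with PDGFRA at 0.041, 0 and 0 TPM. IL1B met a detected receptor pair, IL1R1 at 2.94 ± 0.226 TPM and IL1RAP at 12.1 ± 0.913 TPM, and the shared chain of the gp130 family, IL6ST, was at 94.8, 98.6 and 99.99 TPM.

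The chains that bind the gp130 ligands themselves were lower than IL6ST: IL6R was at 1.61, 2.34 and 0.889 TPM, IL11RA at 7.65, 4.39 and 6.45 TPM and LIFR at 7.33, 7.62 and 7.86 TPM. PLAU and its receptor PLAUR (309.9 ± 14.3 TPM), GAS6 and AXL, and HBEGF and EGFR were pairs with both members high. The reverse pattern appeared for HGF with MET (34.4, 38.7 and 39.6 TPM), SPP1 with CD44, and IGF1 and IGF2 with their receptors. A transcript level on both sides says nothing on protein at the surface.

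**Figure D3:**
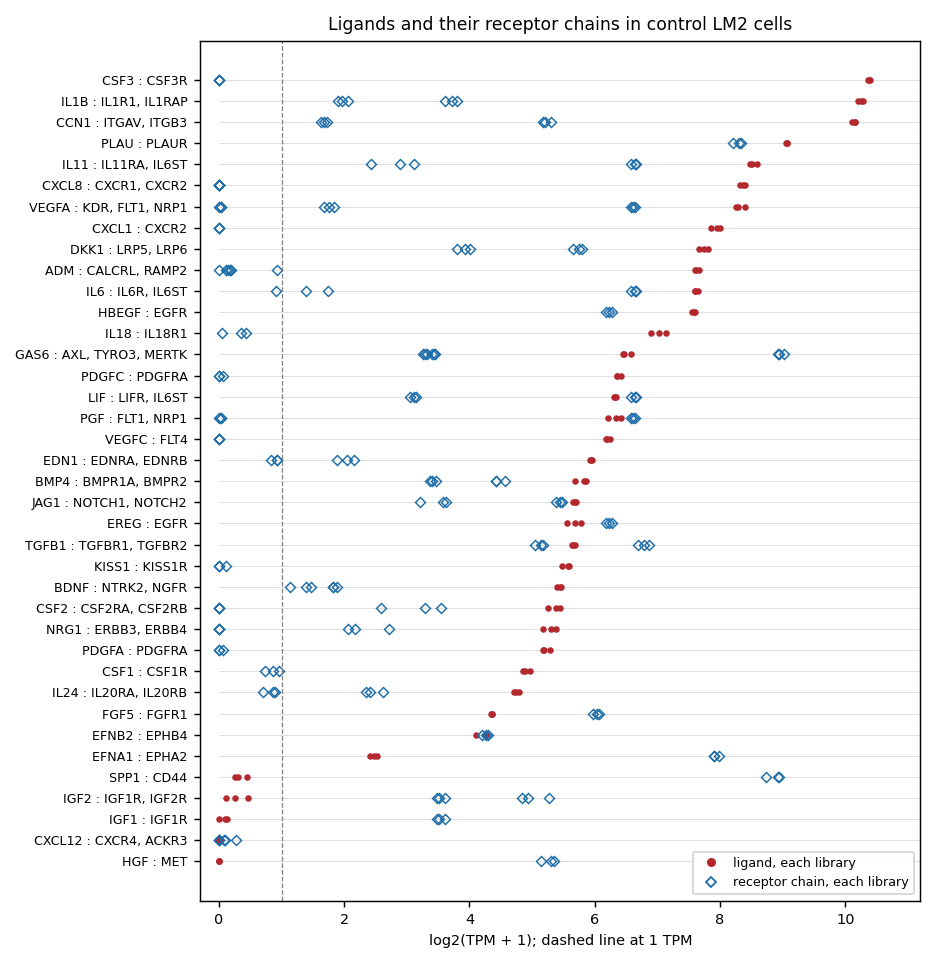
Ligands (filled red circles) and each receptor chain (open blue diamonds) in each of 3 control libraries on a log2(TPM + 1) axis, sorted by ligand level; the dashed line marks 1 TPM. CSF3, CXCL8 and CXCL1 lie far to the right with their receptors at 0, and HGF lies at 0 with MET detected.

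Of 53 receptor tyrosine kinases 25 (47.2%) were detected and 10 (18.9%) were listed at 0, against 59.2% and 22.2% of all features. AXL was the most abundant, EPHA2, an ephrin receptor, was at 244 ± 7.81 TPM, EGFR at 73.6 ± 2.44 TPM, FGFR1 at 64.4 ± 2.18 TPM and MET at 37.5 ± 2.76 TPM. FGFR2, ROR2, FLT3 and FLT4 were listed at 0, and ERBB3 was at 4.09 ± 1.30 TPM with ERBB4 listed at 0. Of 40 cytokine receptor chains 27 were detected. IL13RA2 far exceeded its signalling relative IL13RA1 (48.97 ± 3.17 TPM) and IL4R (50.4 ± 0.332 TPM). Of 23 receptors of the TNF family 17 were detected, with TNFRSF12A (the TWEAK receptor) at 330.0 ± 7.71 TPM, TNFRSF21 at 213 ± 8.45 TPM and the TRAIL receptor TNFRSF10B at 132 ± 3.91 TPM.

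Of 26 integrins 13 (50%) were detected and 4 (15.4%) were at 100 TPM or more, against 59.2% and 9.46% of all features. ITGB1 was at 843 ± 30.8 TPM and ITGA3, its laminin-binding partner, at 380.5 ± 8.29 TPM, while ITGA4 and the leukocyte chains ITGAL and ITGAM were listed at 0. ITGB3 was at 2.21 ± 0.107 TPM beside ITGAV at 36.5 ± 1.63 TPM. Of 76 G protein-coupled receptors 33 (43.4%) were detected and 4 were at 100 TPM or more, the protease receptor F2RL1 (270.5 ± 2.69 TPM), the orphan GPRC5A (178 ± 2.25 TPM), ADGRE5 (142 ± 3.59 TPM), and the adenosine receptor ADORA2B (137 ± 0.917 TPM). SMO, the signal transducer of Hedgehog, was listed at 0 although PTCH1 was at 2.38 ± 0.519 TPM. Of 48 nuclear receptors 30 were detected, among them PPARG (70.9 ± 1.47 TPM) and the glucocorticoid receptor NR3C1 (47.3 ± 2.99 TPM).

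Of 32 antigen presentation and immune ligand genes 26 (81.25%) were detected, against 59.2% of all features. B2M, the light chain of class I molecules, was at 1203 ± 43.8 TPM, HLA-E at 264 ± 4.77 TPM and HLA-B at 168 ± 13.4 TPM. CD74, the class II invariant chain, was at 203 ± 12.2 TPM and HLA-DRA at 24.6 ± 1.13 TPM, with the class II activator CIITA at 4.63 ± 0.406 TPM and HLA-DQA1 listed at 0. CD274 (PD-L1) was at 23.6 ± 1.28 TPM and CD47 at 47.9 ± 2.23 TPM. HLA genes are polymorphic and close to each other in sequence, so single HLA levels are uncertain.

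Of the genes named in the design, TMEM216 was present at a middle level and IGF1 was below detection. TMEM216, which encodes a membrane component of the transition zone at the base of the primary cilium, was at 30.1, 24.02 and 25.1 TPM, with replicate 1 the highest of the 3. All 25 genes of the transition zone list were detected, against 59.2% of all features, with a median of 11.3 TPM. They ran from TMEM138 (95.98 ± 4.82 TPM), the neighbour of TMEM216, down to TMEM17 (1.68 ± 0.245 TPM). IGF1R, the receptor of insulin-like growth factor 1, was at 10.2, 10.5 and 11.3 TPM and INSR at 4.08 ± 0.163 TPM, and the docking proteins IRS1 and IRS2 were at 33.3, 32.2 and 31.8 TPM and 9.08, 8.56 and 9.55 TPM. IGF1 itself was at 0.0978, 0 and 0.0717 TPM and IGF2 at 0.193, 0.0835 and 0.379 TPM. Several genes named as IGF-binding proteins were abundant: IGFBP4 at 893 ± 23.9 TPM, IGFBP7 at 287 ± 7.90 TPM, IGFBP6 at 102 ± 8.87 TPM and IGFBP3 at 60.5 ± 1.22 TPM, with IGFBP5 listed at 0. The IGF signalling list had 25 of 26 members detected, AKT1 carrying 57.8 ± 1.18% of the summed AKT TPM.

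Proliferation genes were detected throughout. All 30 replication genes and all 30 mitosis genes were detected, with medians of 99.9 and 160.1 TPM, against 59.2% of all features detected. So were all 19 genes of a list of cyclins and cyclin-dependent kinases that also holds the phosphatases CDC25A, CDC25B and CDC25C. TYMS, the thymidylate synthase, was at 546 ± 13.8 TPM, PCNA, the clamp of DNA polymerase, at 504 ± 11.6 TPM and the ubiquitin enzyme UBE2C at 812 ± 28.3 TPM. MKI67 was at 104, 108 and 109 TPM and CCNB1, the mitotic cyclin, at 530.5, 529 and 539.6 TPM. Among D-type cyclins CCND1 (446, 453 and 454 TPM) made up 69.6 ± 1.31% of the summed TPM, CCND3 29.2 ± 1.25% and CCND2 1.2 ± 0.0935%. CDK4 took 93.1 ± 0.468% of the sum of CDK4 and CDK6, and CCNE2 74.5 ± 1.25% of the E-type cyclins. RB1 was at 47.4 ± 1.80 TPM and CDKN1A, an inhibitor of cyclin-dependent kinases, at 80.7 ± 3.61 TPM. Telomerase TERT was at 1.37, 0.941 and 1.26 TPM. BCL2L1 (378 ± 19.4 TPM) and MCL1 (293 ± 10.99 TPM) led the survival genes, taking 51.7 ± 2.05% and 40.1 ± 2.00% of the family sum, while BCL2 was at 4.31 ± 0.24 TPM.

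The inhibitors CDKN2A and CDKN2B were listed at 0 in all 3 libraries, and so was everything around them. Ordered along chromosome 9 by GENCODE 29, 24 neighbouring protein-coding genes were at 0, at chr9:20999515-24545946 in GRCh38. They were 16 interferon genes and 8 others: HACD4, KLHL9, MTAP, CDKN2A, CDKN2B, DMRTA1, ELAVL2 and IZUMO3. MTAP, a widely expressed enzyme of methionine salvage whose promoter window is printed above, and KLHL9, a widely expressed ubiquitin ligase adaptor, were thus among them. The neighbours on either side were FOCAD at 1.94, 1.67 and 1.72 TPM and TUSC1 at 17.2, 16.6 and 15.7 TPM. MDA-MB-231 is known as a line with a homozygous loss of CDKN2A. The table holds expression only, and the copy number of the region was not measured here. Runs of genes at 0 also occurred elsewhere, the longest of them mostly in families of tissue-restricted genes. The cause of the run at this locus was not tested.

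Some steps of glycolysis were carried mostly by 1 isozyme and others were shared. Enzymes and transporters of the pathway took 2.42 ± 0.032% of all TPM, and 27 of 37 were detected. PKM made up nearly the whole pyruvate kinase sum, with PKLR at 0, 0.104 and 0 TPM, and HK1 (258 ± 8.93 TPM) held 93.5 ± 0.221% of the hexokinases against 6.43 ± 0.298% for HK2. LDHA held 58.4 ± 0.899% and LDHB 41.6 ± 0.901% of lactate dehydrogenase, so neither dominated. The phosphofructokinases were shared too, with 62.5 ± 0.0959% for PFKP, 22.4 ± 0.601% for PFKM and 15.1 ± 0.604% for PFKL. The glucose transporter SLC2A1 held 88.0 ± 0.118% of its step, and the lactate exporter SLC16A3 (332 ± 9.27 TPM) 95.9 ± 0.473%, with SLC16A1 at 3.04 ± 0.564 TPM. The hypoxia list holds the factors HIF1A, EPAS1 and ARNT beside targets. Of its 17 genes 16 were detected (94.1%, against 59.2% of all features). The exception was CA9, a hypoxia-induced carbonic anhydrase, at 0.766, 0.407 and 0.5 TPM.

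Amino acid and nucleotide routes were also expressed. SHMT2, the mitochondrial serine hydroxymethyltransferase, was at 486 ± 15.7 TPM, PSAT1 at 291 ± 5.44 TPM and PHGDH, which opens serine synthesis, at 85.1 ± 2.87 TPM. PCK2 stood at 46.8 ± 1.85 TPM with PCK1 listed at 0. CBS, which makes cystathionine, was listed at 0 although CTH, the next enzyme, was at 17.3 ± 1.49 TPM. The large amino acid carriers SLC3A2 (599 ± 22.02 TPM) and SLC7A5 (388 ± 11.04 TPM) were high together. Of 29 citrate cycle genes 28 were detected, of 39 lipid genes 37 and of 38 redox genes 34, against 59.2% of all features. FDPS, a sterol enzyme, was at 377 ± 18.6 TPM. Transcripts of CPT1, the gate of fatty acid entry into mitochondria, were spread over CPT1B (44.7 ± 0.5%), CPT1A (32.1 ± 0.423%) and CPT1C (23.2 ± 0.204%), and CPT1B overlaps CHKB-CPT1B on the same strand.

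Several tissue-restricted families had few or no detected members. Of 400 olfactory receptors 1 was detected, OR2B6 at 3.15, 3.08 and 3.04 TPM, and 339 were listed at 0. No member was detected among 39 beta-defensins, 13 interferon alpha genes, 21 UDP-glucuronosyltransferases, 10 globins and 10 pregnancy-specific glycoproteins. Of 406 immunoglobulin and T cell receptor segments 3 were detected, and of 94 keratin-associated proteins 3, led by KRTAP2-3 at 43.6 ± 4.28 TPM. Set against 59.2% of all features, the detected shares of these families were 0% to 3.19%. Members of near-identical copies in such families can share reads.

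Some testis-restricted genes were exceptions. The cancer-testis gene MAGEB2 was at 146, 136 and 141 TPM, while 19 of 34 MAGE genes were listed at 0 and the detected remainder was led by the widely expressed MAGED2 (82.9 ± 3.64 TPM) and MAGEF1 (74.9 ± 1.90 TPM). XAGE1B was at 328, 216 and 290.3 TPM and XAGE1A at 86.8, 204 and 79.5 TPM, the only detected members of 24 GAGE, XAGE and PAGE genes. These copies are nearly identical, and their sum was steadier, at 414.7, 420.9 and 369.8 TPM.

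**Figure D4:**
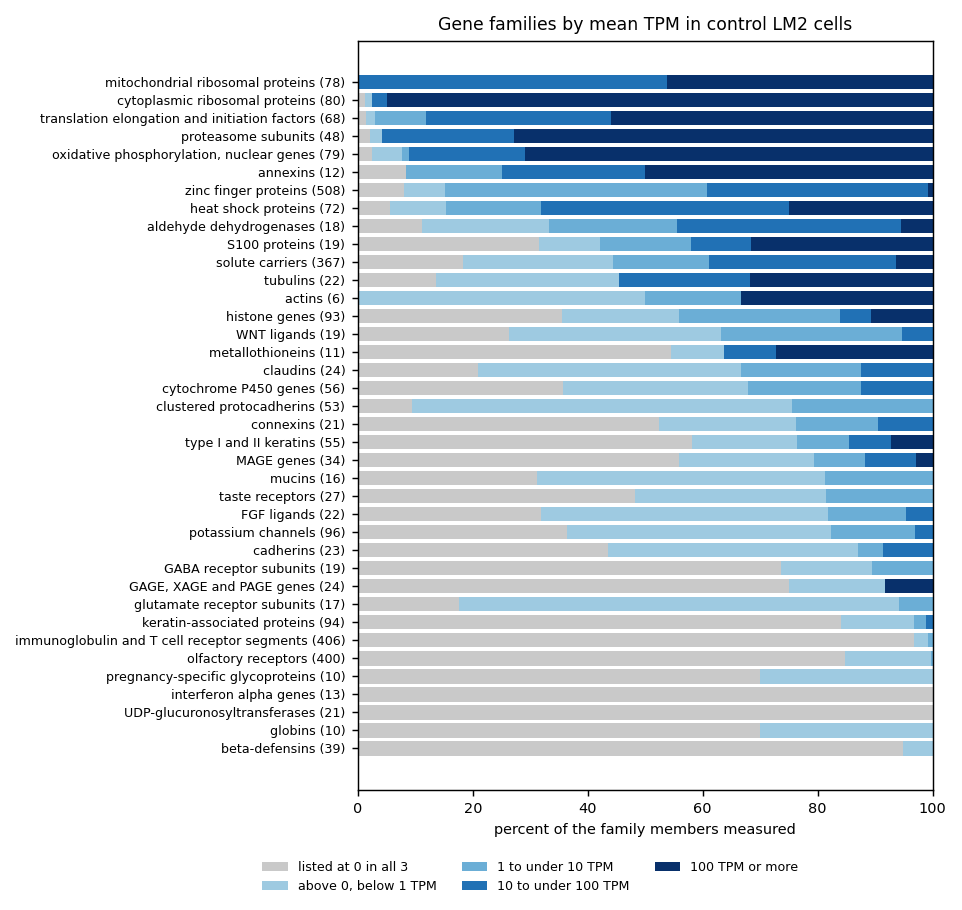
Share of the members of each family (percent, horizontal axis, family size in parentheses) that were listed at 0, or at 4 ranges of mean TPM, over 3 control libraries. Ribosomal and proteasome families lie almost wholly at 10 TPM or more. Interferon alpha genes and UDP-glucuronosyltransferases are all listed at 0, and 84.75% of olfactory receptors are.

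Spread between libraries was small for most named genes and often larger for features with joined symbols or no symbol. Of 8978 named genes at 10 TPM or more that do not join the names of 2 other genes, 46 (0.512%) had a CV above 30%, with a median of 4.70%. Of 27 whose symbols do, 10 (37.0%) had one, and of 51 Ensembl features without a symbol 23 (45.1%). MATR3, an RNA-binding protein of the nuclear matrix, was at 26.5, 141 and 219.7 TPM, and its copy MATR3_1 at 234, 107 and 51.6 TPM, so the library that was high for one was low for the other, with sums of 260.5, 248.0 and 271.3 TPM. PEDS1-UBE2V1, which spans PEDS1 and UBE2V1, was at 0, 0 and 54.6 TPM. At this locus UBE2V1 was lowest in the library where the joined gene was highest, at 293, 308 and 237 TPM. Other joined loci did not show a steady sum. RPL36A-HNRNPH2 was at 29.5, 0 and 25.2 TPM while RPL36A was at 1032, 815 and 833 TPM, so both were lowest in replicate 2, and the sum of the locus with HNRNPH2 had a CV of 12.0%. For DUS4L, BCAP29 and DUS4L-BCAP29 the sums were 89.8, 66.7 and 87.0 TPM. Of the 20 features at 0 in one library and at 10 TPM or more in another, all carried a joined symbol (7), no symbol (7) or an MSTRG name (6). Other genes of high spread were ZC3H11A (56.5, 9.78 and 73.97 TPM), TRIM52 (25.5, 9.53 and 8.39 TPM) and TTC7B (7.22, 6.90 and 18.2 TPM).

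**Figure D5:**
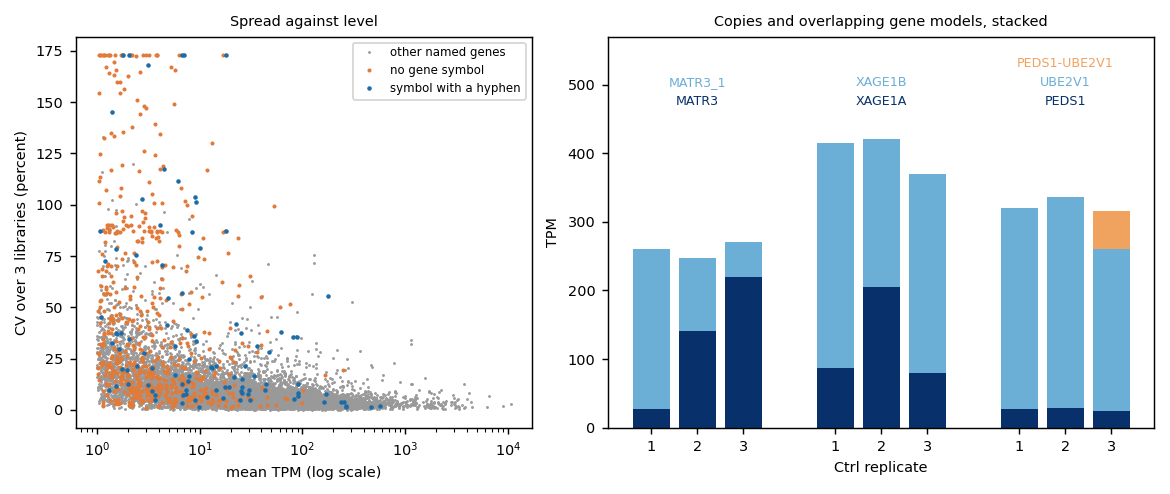
Left, CV over 3 control libraries (percent) against mean TPM (log scale) for features at 1 TPM or more; right, TPM of copies and overlapping models stacked in each library. MATR3 and MATR3_1 trade places while their sum stays between 248.0 and 271.3 TPM.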

How the data were processed

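Total RNA of MDA-231-LM2 cells was sequenced in 12 libraries, of which the 3 labelled Ctrl were used. The authors deposited TPM values for 21574 features, each library summing to 1000000. The tools listed are HISAT2, StringTie and RSEM, per the submitters' processing notes. Not given in the sources used here are their versions, the genome build, the annotation and whether strand was kept. Without counts, depth and counting error are unknown. Means, SDs, CVs (SD over mean), shares of TPM and counts at 1, 10, 100 and 1000 TPM were computed with pandas 2.3.3 in Python 3.11.15 from the values as deposited. Summaries were tested on simulated tables. No test between groups was run. A few genes of the lists are not reported here. Genes were named by a rule of highest members per list, members below 1 TPM, and isoform or subtype contrasts, with the 30 most abundant genes and the extremes of CV. The members and lists were chosen with earlier results of these data known. Gene order, spans and antigen receptor segments came from GENCODE 29, matched by Ensembl identifier for 98.9% of 20443 features, and promoters from RefSeq (GRCh38.p14). Of 1190 listed genes at 1 TPM or more with a span, 301 overlap another detected gene, 84 on the same strand, so their reads could be shared. Alternatives were other detection thresholds, averages, scalings and leaving out each library.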

Additional observations from a re-analysis of the deposited data

How the results depend on the processing

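The count of detected features, 12782, was 13585 at a threshold of 0.5 TPM, 10548 at 5 TPM, 12332 when 1 TPM was required in each library, 12702 by the median and 12348 without MSTRG features. Leaving out 1 library gave 12769 to 12783. With 1 library left out, the share of the top 100 features (24.1%) was 23.95% to 24.19%. The median CV at 10 TPM or more (4.74%) was 3.66% to 4.18% over the 2 remaining libraries, 5.90% at 1 TPM or more and 3.45% at 100 TPM or more. The mean correlation between libraries, 0.9948, became 0.988 with a pseudocount of 0.1 and 0.9875 over detected features only, in both cases by more than the spread over the 3 pairs; the first gives low values more weight and the second removes features at 0 in common. For 1193 named genes at 1 TPM or more, median-of-ratios scaling moved none by more than its SD. Its factors were 0.992, 1.001 and 1.009 for replicates 1, 2 and 3. They are taken against the geometric mean of the same 3 libraries and so lie around 1. The mean of the scaled values could thus hardly move, and nothing is read from that result. The median and the leave-one-out means of 3 values cannot differ from their mean by more than 1 SD, so nothing is read from them. A threshold of 5 TPM moved the counts of 9 of 48 lists by over 1.5 times, among them hormone receptors (1 member), luminal factors (3), HOX genes (6) and nuclear receptors (19). A threshold of 0.5 TPM moved that of stromal markers alone, to 3. The count of stromal markers detected, 1, became 2 without replicate 1 or without replicate 2, and that of pluripotency factors, 2, became 1 without replicate 3. Rescaling without mitochondrially encoded genes was not run, since the table holds none. No paired analysis was possible because only 1 group was described and no test was run. TPM gives no depth, so the counting error of values below 1 TPM is unknown. Their median CV was 82.9%.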

Other observations

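Beside the chromosome 9 run, 82 further runs of 6 or more neighbouring protein-coding genes were listed at 0. The longest held 63 genes on chromosome 11, from OR4X1 to APLNR, mostly olfactory receptors. The next held 44 genes on chromosome 1, from CRCT1 to S100A7, the skin cornification genes, which end beside S100A6 at 4028 TPM. A run of 31 genes lay on chromosome 1 from AADACL4 to PDPN. On chromosome X, 13 genes from CT47B1 to CT47A1 were at 0 between C1GALT1C1 (85.7 TPM on average) and GLUD2. These are values, and no explanation was tested.

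The steadiest named genes at 10 TPM or more were CPNE1 (296, 296 and 296 TPM), CTNNBL1 (101, 101 and 101 TPM) and TACC3 (234, 234 and 234 TPM), with CVs of 0.0207% to 0.0516%.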
